A study of Mus musculus with 18 samples.

Results

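Ttr, Kl, Folr1, Clic6, Enpp2, Apod, Dcn, Ptgds and Lum were chosen as 9 genes known from the choroid plexus or the meninges of the brain, and every probe set annotated to exactly 1 of these symbols was taken. A probe set is a group of short probes on an Affymetrix array that is summarised as 1 value. The rule found 16 probe sets of 8 genes, out of 34945 probe sets that the array annotation assigns to a single symbol and 18193 genes so covered. Ttr, Kl, Folr1 and Clic6 are the choroid plexus genes, with 9 probe sets, and Apod, Dcn, Ptgds and Lum are the meningeal genes, with 7. Enpp2 encodes autotaxin, a secreted enzyme that makes lysophosphatidic acid. No probe set carried its symbol alone in the annotation used, and Enpp2 was not analysed here.

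The choroid plexus is a secretory epithelium inside the brain ventricles that makes cerebrospinal fluid and moves hormones, vitamins and ions between blood and that fluid. The meninges are the membranes around the brain, and their fibroblasts make collagens and the small leucine-rich proteoglycans that bind collagen fibrils. Neither tissue is neuronal, and in brain these transcripts are known mainly from cells other than neurons. Ptgds and Apod are also known from oligodendrocytes, the myelin-forming cells of the brain, and are therefore not specific to the meninges.

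The study set RNA that co-purified with a flag-tagged poly(A)-binding protein (PABP) against RNA of the whole brain, to profile the neurons that make orexin, a hypothalamic peptide that promotes wakefulness. The IP group held 9 arrays of RNA cross-linked to the tagged protein in formaldehyde-perfused brains and pulled down with anti-flag beads, labelled as polyA RNA, and the WB group held 9 arrays of whole brain total RNA. All mice of both groups carried the transgene, a bacterial artificial chromosome in which a flag-tagged rat PABP cDNA, followed by eGFP, replaces the orexin coding sequence, so that orexin regulatory sequence drives it. Their strain was C57BL/6J X DBA/2J. The labels give 11 and 14 weeks as ages without saying which sample had which, and do not say that each sample came from its own animal, so each p-value refers to the spread over these samples, part of which may be technical. The groups also differ in the kind of RNA, and this difference and the pull-down cannot be told apart. These are bulk samples, in which fewer cells of a type, less RNA per cell and less RNA recovered by the pull-down cannot be told apart either.

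Values were deposited intensities on a linear scale, and differences are IP minus WB on log2(intensity + 16), where 16 is a pseudocount. A probe set was called where the limma test across all 45037 non-control probe sets gave a Benjamini-Hochberg adjusted p of at most 0.05. The number of arrays, 9 a group, limits the precision. IP arrays varied more than WB arrays, with a median SD over all probe sets of 0.74 in IP and 0.34 in WB on the log2 scale. The 3 Trp control probe sets, among the dimmest on the array, read 14.3 to 146 in IP and 7.43 to 122 in WB, and values in that range are hard to tell from background. IP replicates 2, 5, 6 and 8 stood apart from the other 5 IP arrays, with array means of 924 to 994 in these 4, 759.9 to 828 in the other 5 and 643 to 687 in WB. Hcrt, the gene of orexin itself and the defining marker of the labelled neurons, read from 73.8 through a median of 308 to 491 in IP and from 156 through 248 to 388 in WB, and was not called (difference 0.21, SE 0.28, limma adjusted p = 0.568).

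Most of the called choroid plexus and meningeal probe sets were lower in IP, and Ttr alone had calls in both directions. Of the 16 probe sets, 2 were higher in IP, both of Ttr, against a background of 14.2% of all probe sets called higher. Another 8 were lower, from Ttr, Kl, Apod, Dcn, Ptgds and Lum, against a background of 30.8% called lower, and 6 were not called. In 3 of the 16, one each of Ttr, Apod and Ptgds, all 9 IP arrays lay below all 9 WB arrays, against 10.3% of all probe sets. None of the 16 had all IP arrays above all WB arrays, which 5.22% of all probe sets had. The median difference was -0.58 over the 16 and -0.23 over all 45037. The choroid plexus genes and the meningeal genes stood differently in these counts, with a median difference of -0.22 over 9 probe sets for the choroid plexus genes and -1.34 over 7 for the meningeal genes. Of the choroid plexus probe sets 2 were higher, 3 lower and 4 not called, and of the meningeal ones 5 were lower, 2 not called and 0 higher by the limma test, unadjusted p included.

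**Figure D1:**
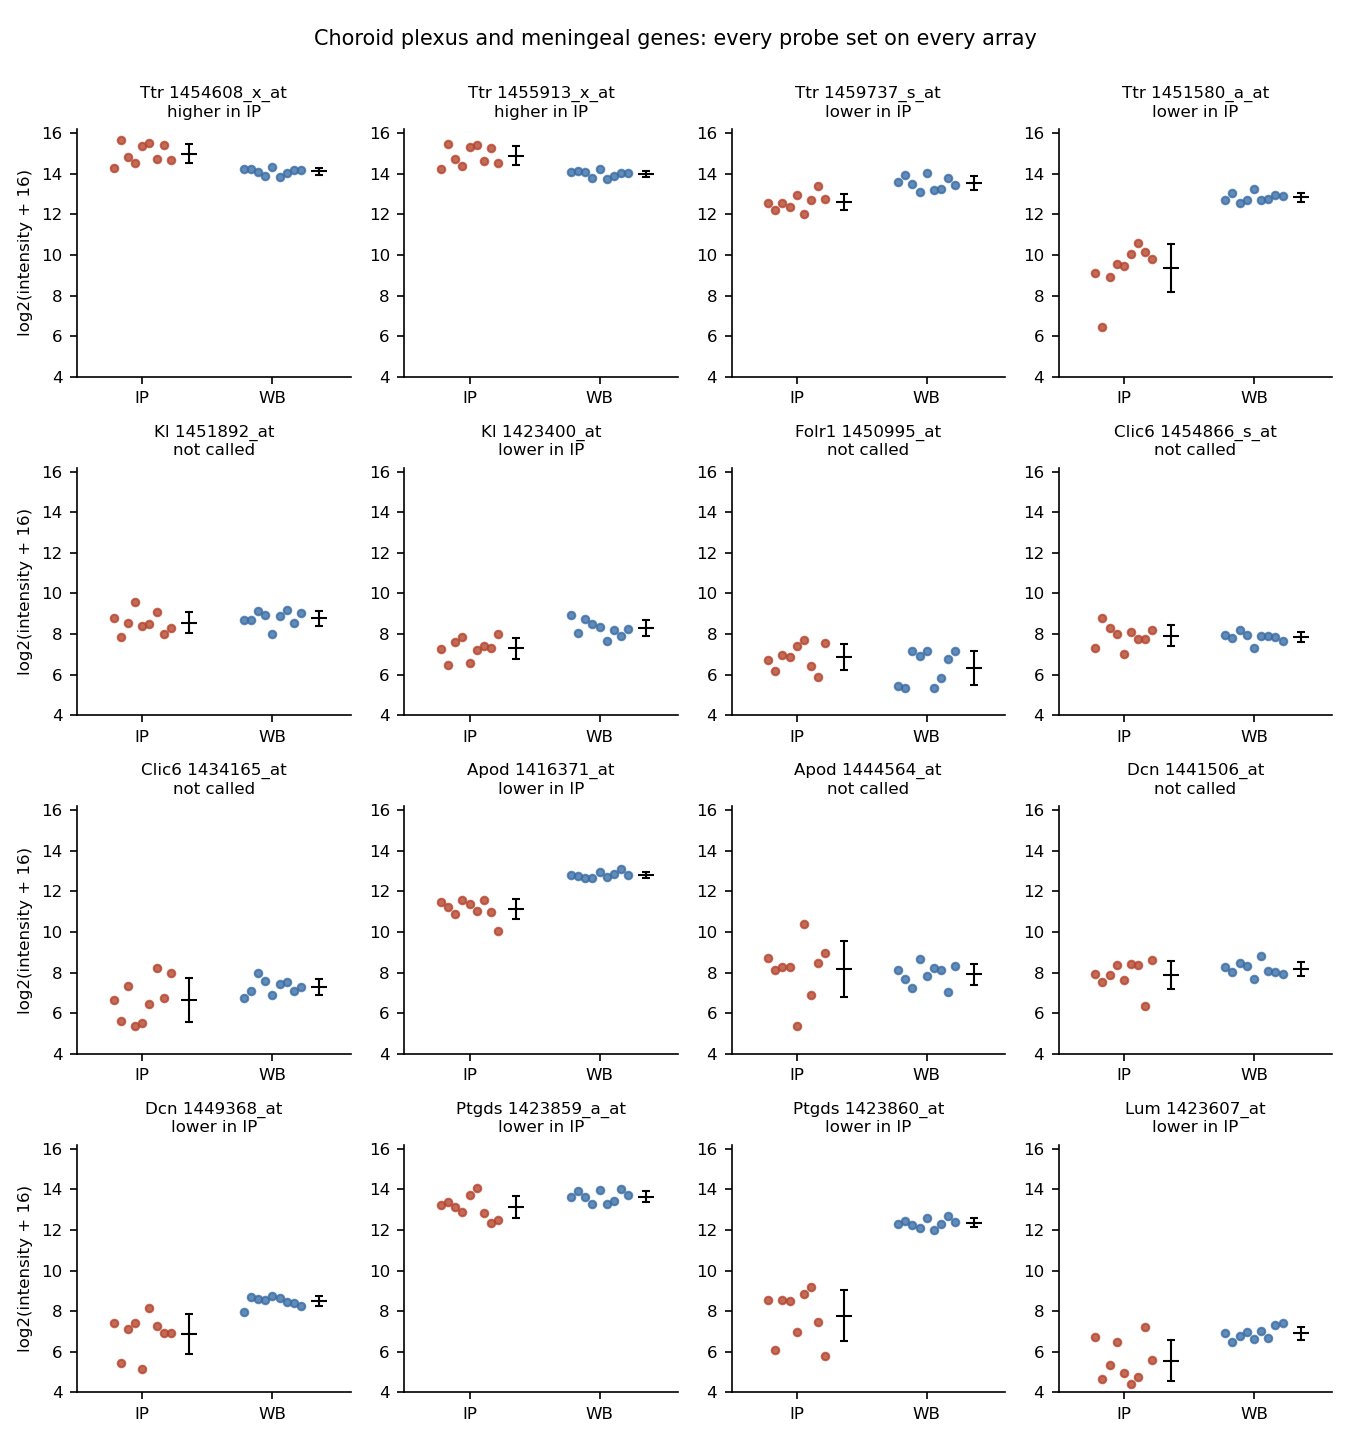
Intensity of each of the 16 probe sets on every array, on a log axis, with the 9 IP arrays left of the 9 WB arrays. Ttr 1451580_a_at, Apod 1416371_at and Ptgds 1423860_at are the panels in which the groups do not overlap, and in all 3 the IP arrays are lower.

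Ttr encodes transthyretin, the main secretory product of choroid plexus epithelium, which carries thyroxine and the retinol-binding protein in cerebrospinal fluid. Its 4 probe sets did not move together, and their mean was lower in IP (difference -0.66, limma adjusted p = 0.000466). On 1454608_x_at, the brightest, the intensity ran from 19988 through a median of 28619 to 51200.2 in IP and from 14804 through 18339 to 20510.4 in WB. All IP arrays lay above the WB median and 8 of 9 lay above every WB array. The mean log2 values were 15.00 ± 0.49 in IP and 14.11 ± 0.16 in WB (SD, n = 9 each), a difference of 0.88 (SE 0.16, 95% interval 0.55 to 1.21, limma adjusted p = 7.07e-05) or 1.84-fold higher in IP. The second such probe set, 1455913_x_at, gave 18916.5 to 45298 in IP with a median of 27522, and 13725 to 19133 in WB with a median of 16601. It too had 8 IP arrays above every WB array, and its difference was 0.89 (SE 0.16, limma adjusted p = 5.31e-05), or 1.86-fold.

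The rise of these Ttr values was largest on the 4 IP arrays that stood apart. On 1454608_x_at those arrays read 42655 to 51200.2 and the other 5 IP arrays 19988 to 28619, with no overlap, and on 1455913_x_at they read 40036 to 45298 against 18916.5 to 27522. Without the 4, the differences were 0.49 and 0.51, still called. Both directions also depended on the scaling. They were -0.25 and -0.26 after quantile normalization, called lower with limma adjusted p of 0.00144 and 0.00117, and -0.06 and -0.05, not called, after scaling on the hybridization controls. The part of the higher array means in the Ttr rise was not tested.

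The remaining Ttr probe sets were lower in IP. 1459737_s_at read 4158 to 10850.1 in IP with a median of 5971, and 8732 to 17000.2 in WB with a median of 11681. All 9 IP arrays lay below the WB median and 8 lay below every WB array, and the difference was -0.94 (SE 0.16, 95% interval -1.27 to -0.60, limma adjusted p = 4.91e-05), or 1.91-fold lower in IP. 1451580_a_at was the farthest from its neighbours. It read 72.7 to 1546 in IP with a median of 738, and 5981 to 9591 in WB with a median of 6934. The groups did not overlap: the highest IP array was below the lowest WB array. Mean log2 values were 9.35 ± 1.20 in IP and 12.84 ± 0.21 in WB (SD, n = 9 each), a difference of -3.49 (SE 0.34, 95% interval -4.19 to -2.79, limma adjusted p = 8.21e-09), or 11.2-fold lower in IP.

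Kl encodes klotho, a membrane protein of the choroid plexus and kidney that serves as a co-receptor for fibroblast growth factor 23. On 1451892_at Kl read 215 to 752 in IP with a median of 348, and 239 to 562 in WB with a median of 466. The groups overlapped along most of their range and the difference of -0.22 was not called (95% interval -0.69 to 0.24, limma adjusted p = 0.448). It was called lower when scaled on the hybridization controls (-1.11, adjusted p = 0.00505), as were 28084 of all 45037 probe sets. Without the 4 IP arrays it was 0.074. On 1423400_at it read 74.0 to 240.0 in IP with a median of 141, and 184 to 477 in WB with a median of 287. Here 7 of 9 IP arrays lay below every WB array, and the value was 1.99-fold lower in IP (difference -0.99, SE 0.25, limma adjusted p = 0.00219). That call was lost after quantile normalization (-0.56, adjusted p = 0.0554) and after median centring (-0.57, adjusted p = 0.0539), and without the 4 IP arrays the difference was -0.66. Of the IP values 5 of 9 were no higher than the brightest Trp control.

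Folr1 encodes folate receptor alpha, which carries folate across the choroid plexus into cerebrospinal fluid. Its single probe set, 1450995_at, read 42.5 to 196 in IP with a median of 103, and 24.5 to 129 in WB with a median of 94.9. The groups overlapped, most values were no higher than the brightest Trp control of their group, and the difference of 0.51 was not called (95% interval -0.21 to 1.24, limma adjusted p = 0.247). It was called higher after quantile normalization (1.01, adjusted p = 0.0169) and after median centring (0.94, adjusted p = 0.0318), and its sign turned after scaling on the hybridization controls (-0.23).

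Clic6 encodes a member of the chloride intracellular channel family that is abundant in choroid plexus epithelium. On 1454866_s_at it read 114 to 430.0 in IP with a median of 238, and 142 to 282 in WB with a median of 224, so the IP arrays spread on both sides of the WB range. The difference was 0.08 (95% interval -0.41 to 0.56, limma adjusted p = 0.820). On 1434165_at it read 25.1 to 287 in IP with a median of 84.1, and 90.7 to 240.1 in WB with a median of 139.5. The IP arrays again reached past both ends of the WB range, and the difference of -0.64 was not called (95% interval -1.40 to 0.11, limma adjusted p = 0.161). Without the 4 IP arrays it was -0.18. Both Clic6 probe sets were called lower when scaled on the hybridization controls (-0.80, adjusted p = 0.0172, on 1454866_s_at and -1.39, adjusted p = 0.00395, on 1434165_at). With that scaling 28084 of all 45037 probe sets were called lower.

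The meningeal genes had the lower values in IP on every probe set that was called. Apod encodes apolipoprotein D, a lipocalin, one of a family of small secreted proteins that bind fatty molecules. On 1416371_at Apod read 1040.1 to 3083 in IP with a median of 2409.8, and 6482 to 8665 in WB with a median of 7056. No IP array reached the lowest WB array. The mean log2 values were 11.15 ± 0.49 in IP and 12.81 ± 0.14 in WB (SD, n = 9 each), 3.17-fold lower in IP (difference -1.66, SE 0.16, limma adjusted p = 7.33e-09). The second Apod probe set, 1444564_at, read 25.8 to 1310.35 in IP with a median of 295, and 118 to 386 in WB with a median of 261. Its IP arrays enclosed the whole WB range, and the difference of 0.25 was not called (95% interval -0.64 to 1.14, limma adjusted p = 0.667).

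Ptgds encodes the lipocalin-type prostaglandin D synthase, which makes prostaglandin D2, a promoter of sleep, and is secreted into cerebrospinal fluid. On 1423859_a_at Ptgds read 5191 to 17125 in IP with a median of 9007, and 9786 to 16649.6 in WB with a median of 12794. Of the IP arrays 6 lay below every WB array and 1 above every WB array. The value was 1.44-fold lower in IP (difference -0.52, SE 0.19, limma adjusted p = 0.0240), a call that depended on the arrays and the scaling. It was lost without IP replicate 8 (-0.43, adjusted p = 0.0544), without IP replicate 9 (-0.45, adjusted p = 0.0527), after median centring (-0.10, adjusted p = 0.728) and without an intensity trend in the variance (adjusted p = 0.0556). It was larger after quantile normalization (-1.49, limma adjusted p = 2.23e-09), when scaled on the hybridization controls (-1.47, adjusted p = 1.94e-07) and without the 4 IP arrays (-0.73, adjusted p = 0.00038). On 1423860_at the separation was wide. It read 38.9 to 568 in IP with a median of 349, and 4109 to 6654 in WB with a median of 5085. The groups did not overlap, and the mean log2 values of 7.77 ± 1.25 in IP and 12.35 ± 0.22 in WB (SD, n = 9 each) differed by -4.57 (SE 0.36, 95% interval -5.31 to -3.83, limma adjusted p = 1.93e-10), or 23.8-fold lower in IP, with 3 of 9 IP values no higher than the brightest Trp control.

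Dcn and Lum encode decorin and lumican, collagen-binding proteoglycans of fibroblasts whose genes are direct neighbours in the mouse genome, with 0 protein-coding genes between them in the RefSeq annotation. On 1449368_at Dcn read 19.4 to 272 in IP with a median of 126, and 236 to 422 in WB with a median of 356. In 8 of 9 IP arrays it was below every WB array, and it was 3.05-fold lower in IP (difference -1.61, SE 0.33, 95% interval -2.28 to -0.94, limma adjusted p = 0.000253). Of the IP values 6 of 9 were no higher than the brightest Trp control, and without the 4 IP arrays the difference was -1.25. On 1441506_at Dcn read 65.7 to 384 in IP with a median of 232, and 191 to 438 in WB with a median of 253, with wide overlap and a difference of -0.29 that was not called (95% interval -0.84 to 0.26, limma adjusted p = 0.407). It was called lower when scaled on the hybridization controls (-1.15, adjusted p = 0.00574), as were 28084 of all 45037 probe sets. Without the 4 IP arrays it was 0.053. Lum, on 1423607_at, read 5.19 to 135 in IP with a median of 24.6, and 73.9 to 154 in WB with a median of 106. Here 7 of 9 IP arrays lay below every WB array and 8 below the WB median. It was 2.54-fold lower in IP (difference -1.34, SE 0.35, limma adjusted p = 0.00289), although most of its values were no higher than the brightest Trp control of their group, and the call was lost after quantile normalization (-0.88, adjusted p = 0.0541).

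**Figure D2:**
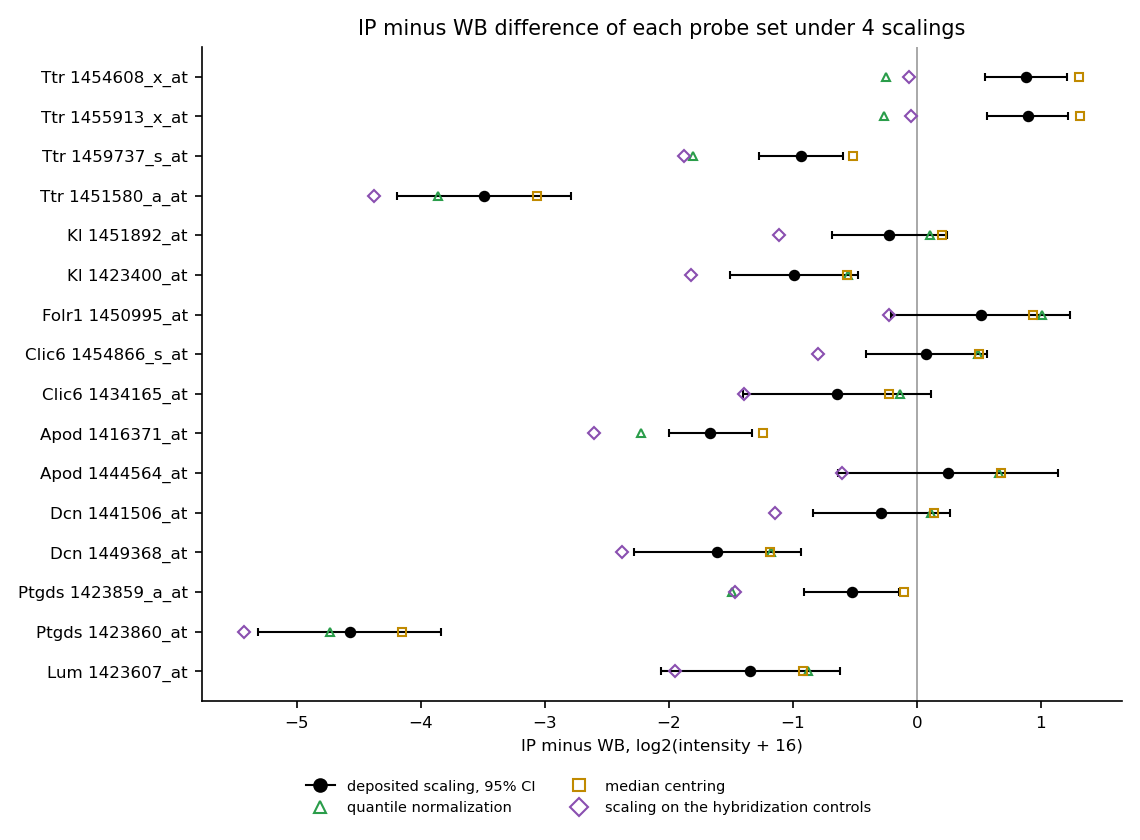
Difference between IP and WB, on log2(intensity + 16), of each of the 16 probe sets, as black points with 95% intervals for the deposited scaling and as open symbols for 3 other scalings. The black points run from -4.57 for Ptgds 1423860_at to 0.89 for Ttr 1455913_x_at, and the upper Ttr points cross 0 under quantile normalization.

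The spread between arrays was larger in IP than in WB for 15 of the 16 probe sets, with Folr1 as the exception. The SD ran from 0.41 to 1.38 in IP, on Ttr 1459737_s_at and Apod 1444564_at. It ran from 0.14 to 0.84 in WB, on Apod 1416371_at and Folr1. Their median SD was 0.59 in IP and 0.30 in WB, against 0.74 and 0.34 over all probe sets, and 6 of 16 exceeded that of all probe sets in IP and 5 in WB.

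Probe sets annotated to the same gene thus gave different answers, and this was measured by the ratio of 2 probe sets of 1 gene on the same array, in which a scaling factor of the whole array acts through the pseudocount alone. Scaling on the hybridization controls moved the differences in these log2 ratios by at most 0.12, on Clic6, and by 0.092 for Ptgds. Quantile normalization, which is not a single factor per array, was not applied to the ratios. After it the single differences were -3.86 on Ttr 1451580_a_at and -0.25 on Ttr 1454608_x_at. Over the 11 pairs of probe sets of the 6 members with more than 1, an exact two-sided permutation test over arrays passed in 9 pairs after Benjamini-Hochberg adjustment over the 11. Most of the 11 pairs are combinations of the Ttr probe sets, so they are not independent results. The share of same-gene pairs over the whole array that would pass was not computed. The log2 ratio of Ttr 1451580_a_at over 1454608_x_at was -5.65 ± 1.43 in IP and -1.27 ± 0.15 in WB (SD, n = 9 each). It ran from -9.17 to -4.10 in IP and from -1.54 to -1.10 in WB, with no overlap. The difference was -4.37 (SE 0.48), with an exact permutation p of 4.11e-05, the smallest that these arrays allow, and an adjusted p of 7.54e-05. The ratio of the pair that rose, 1455913_x_at over 1454608_x_at, stayed close between groups, at -0.10 ± 0.04 in IP and -0.12 ± 0.05 in WB, a difference of 0.01 (SE 0.02, exact permutation p = 0.644). For 1459737_s_at over 1454608_x_at the ratio was -2.38 ± 0.64 in IP and -0.57 ± 0.20 in WB, again without overlap (difference -1.82, SE 0.22, exact permutation adjusted p = 7.54e-05).

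Ptgds showed the same kind of divergence with both probe sets lower in IP. The log2 ratio of 1423860_at over 1423859_a_at was -5.35 ± 1.26 in IP and -1.30 ± 0.10 in WB (SD, n = 9 each). It ran from -7.28 to -3.64 in IP and from -1.46 to -1.12 in WB, so that the groups did not overlap, and the difference was -4.05 (SE 0.42, exact permutation adjusted p = 7.54e-05). In Dcn, the ratio of 1449368_at over 1441506_at was lower in IP by a difference of -1.32 (SE 0.35, exact permutation adjusted p = 0.0020), and in Kl that of 1423400_at over 1451892_at by -0.77 (SE 0.25, adjusted p = 0.00945). In Apod the ratio of 1444564_at over 1416371_at was higher in IP by 1.92 (SE 0.58, exact permutation adjusted p = 0.00656), and in Clic6 the difference of -0.72 did not pass (SE 0.40, adjusted p = 0.0978). In these 4 genes the groups overlapped. Without the 4 IP arrays that stood apart the Ttr and Ptgds differences were -3.73 and -3.50.

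**Figure D3:**
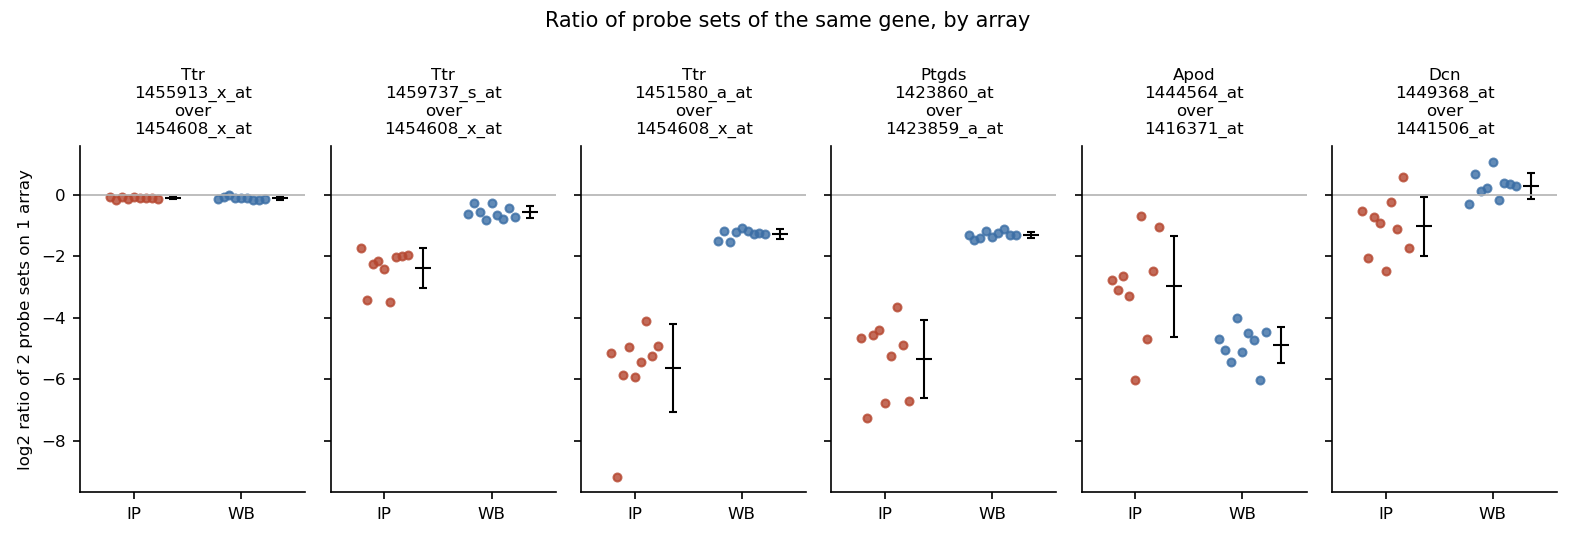
Log2 ratio of 2 probe sets of a gene on each array, for 3 pairs of Ttr and 1 pair each of Ptgds, Apod and Dcn, with the 9 IP arrays left of the 9 WB arrays and the mean and SD beside each group. For Ttr 1451580_a_at over 1454608_x_at and for Ptgds 1423860_at over 1423859_a_at the IP arrays spread widely and all lie below the WB arrays.

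Set against other genes, the disagreement was large for Ttr and Ptgds and ordinary for the rest. The differences of the 4 Ttr probe sets spanned 4.38 on the log2 scale and those of the 2 Ptgds probe sets 4.05, against a median span of 1.30 over the 9010 genes with at least 2 probe sets. Only 1.34% of these genes had a larger span than Ttr and 2.24% a larger one than Ptgds. The genes were not matched for their number of probe sets, 4 for Ttr and 2 for Ptgds, and a span can grow with that number. Apod (1.92), Dcn (1.32), Kl (0.77) and Clic6 (0.72) were exceeded by 30.6%, 49.1%, 69.9% and 71.9% of genes. Ttr was the 1 member with probe sets called in opposite directions, which was true of 22% of the 9010 genes. Probe sets whose names end in _x_at, _s_at or _a_at hold probes that may match several transcripts or variants. Among the 10 members with plain _at names 0 were higher by the limma test, unadjusted p included, and 5 were lower (median -0.82). Over all probe sets of any name 14.2% were higher and 30.8% lower, and the share over plain _at names was not computed. With the other suffixes, Ttr 1454608_x_at and 1455913_x_at were higher and Clic6 1454866_s_at was not called. Ttr 1459737_s_at, Ttr 1451580_a_at and Ptgds 1423859_a_at were lower. The part of such matching in the Ttr rise was not tested.

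Array controls probe the 3′ and 5′ ends of 4 transcripts, and their ratios differed between the groups for 2 of them, in opposite directions. The log2 ratio of the 3′ over the 5′ probe set of Gapdh was 4.13 ± 0.66 in IP and 1.56 ± 0.15 in WB (SD, n = 9 each, exact permutation adjusted p = 8.23e-05). That of Pcx moved the other way, at -2.68 ± 0.82 in IP and -0.27 ± 0.46 in WB (adjusted p = 8.23e-05 by the same exact permutation test). Actb, at -0.35 ± 0.44 in IP and -0.17 ± 0.08 in WB, and Tfrc, at -0.95 ± 0.49 in IP and -1.01 ± 0.35 in WB, did not pass (exact permutation adjusted p = 0.333 and 0.777). The part of transcript coverage in the Ttr and Ptgds ratios was not tested.

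A wider list of choroid plexus genes did not share a direction. By the brightest probe set of each gene, 6 of 35 were higher in IP (17.1%) and 4 lower (11.4%), against 21.7% of all 18193 genes higher and 21.7% lower, and the list's median difference was 0.0050 against 0.0041 over all genes. Without the members, 5 of 31 were higher and 4 lower. Slc12a2, an ion cotransporter of the secretory epithelium, was higher by 1.80 (limma adjusted p = 8.43e-12) with 5550.1 to 9719 in IP and 1861 to 2524 in WB, without overlap, but its other 2 probe sets were lower. Sulf1, a sulfatase that edits heparan sulfate, and Slc29a4, a monoamine transporter, were higher by 1.07 and 1.06, neither called when scaled on the hybridization controls. Igfbp2, a carrier of insulin-like growth factors (-1.07), Kcnj13, a potassium channel (-0.96), and Steap1, a metalloreductase family member (-0.95), were lower, although Igfbp2 and Steap1 were not called after quantile normalization. The counts turned with the scaling: 13 higher and 2 lower after quantile normalization, 13 and 1 after median centring, 1 and 20 when scaled on the hybridization controls, and 2 and 11 when all probe sets of a gene were averaged. With that averaging the median difference was -0.22 over the list and -0.16 over all genes, and the share of all genes called was not computed. The counts over all 45037 probe sets, which are not limited to 1 per gene, turned too. They were 10869 higher and 9908 lower after quantile normalization, 12802 and 8322 after median centring, and 1461 and 28084 on the hybridization controls.

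The list of meningeal and fibroblast genes held more genes that were lower in IP. Of 34 genes, 5 were higher (14.7%) and 14 lower (41.2%), against 21.7% in each direction over all genes, with a median of -0.17, and without the members 5 of 30 were higher and 11 lower. Col6a1 and Col6a2, chains of the microfibrillar collagen VI, were higher. Col6a1 read 624 to 2774 in IP and 118 to 226 in WB, without overlap (difference 3.26, limma adjusted p = 2.02e-11), and Col6a2 was higher by 2.37 (adjusted p = 0.000136) on its brightest probe set and by a mean of 2.05 over its 2 probe sets, both called higher. Slc13a3, a dicarboxylate transporter, was higher by 2.11 on its brightest probe set, with 2 of its other 3 lower. Islr, a leucine-rich repeat protein of stromal cells, read 42.5 to 120 in IP and 223 to 423 in WB, without overlap (difference -1.82, limma adjusted p = 9.60e-07). Bmp6, a bone morphogenetic protein (-1.72), and Slc6a13, a GABA transporter of the meninges (-1.48), were lower too. The counts were 6 higher and 10 lower after quantile normalization, 9 and 10 after median centring, 3 and 22 when scaled on the hybridization controls and 7 and 13 without the 4 IP arrays. The counts over all probe sets under these scalings are those given for the choroid plexus list.

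**Figure D4:**
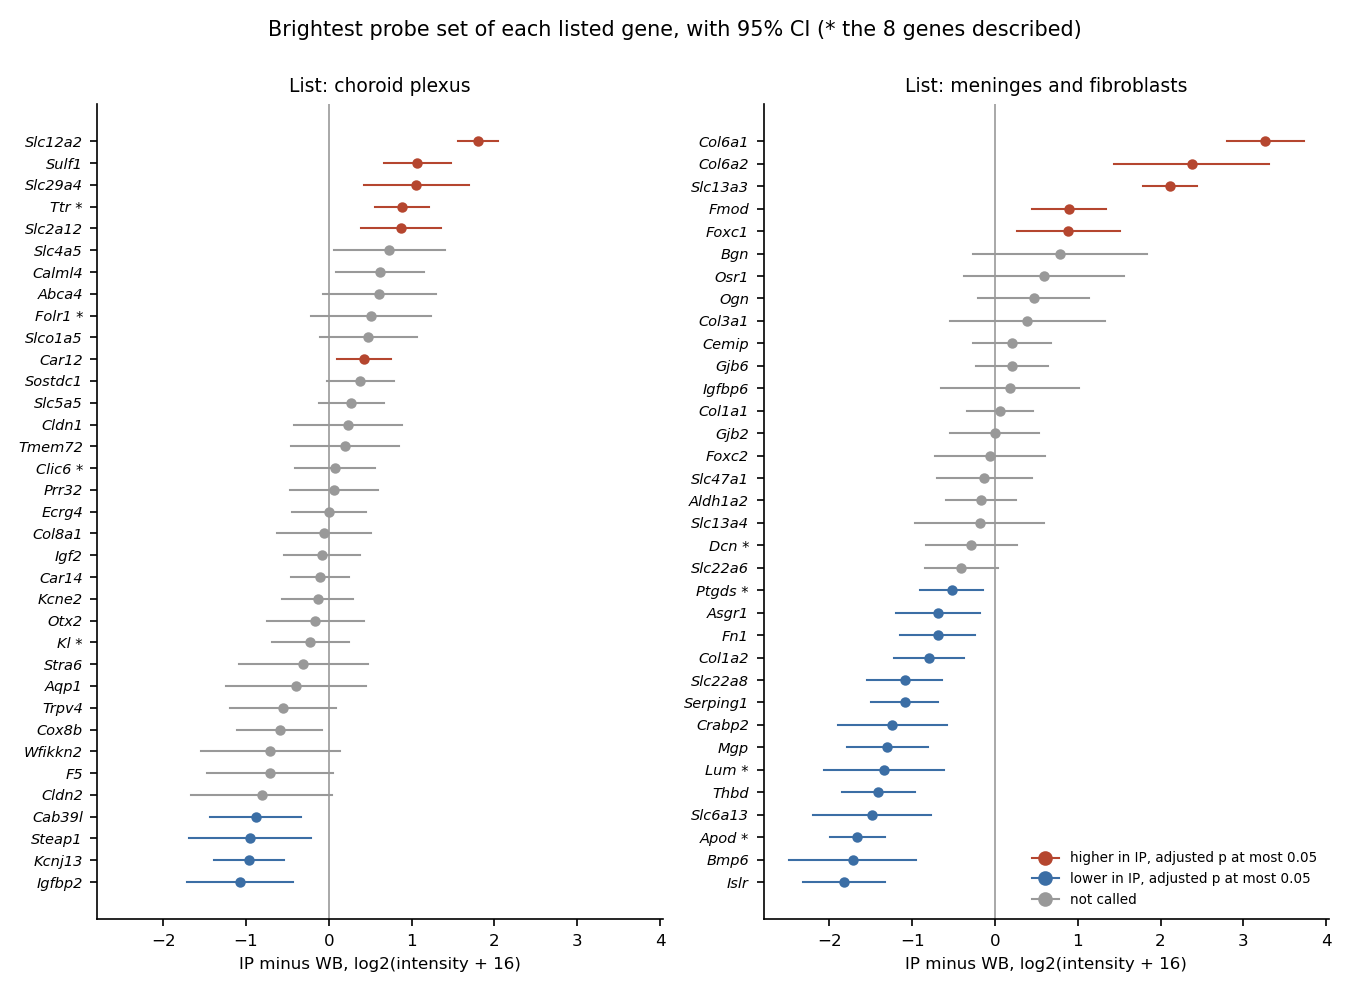
Difference between IP and WB, on log2(intensity + 16), of the brightest probe set of each listed gene with its 95% interval, for the choroid plexus list (35 genes) and the list of meninges and fibroblasts (34 genes), coloured by call, with the members marked by an asterisk. The choroid plexus genes lie on both sides of 0 and 14 of the 34 meningeal and fibroblast genes are called lower.

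Markers of other cell types did not move as 1 block beside them. The background for these lists was 21.7% of all 18193 genes higher and 21.7% lower by the brightest probe set. Of 18 ependymal genes, from the ciliated cells that line the ventricles next to the choroid plexus, 5 were higher (27.8%) and 1 lower (5.56%). Pltp, a phospholipid transfer protein, was highest (1.74, although its other probe set was lower) and Rarres2, the gene of chemerin, was lower (-1.25). Of 15 oligodendrocyte genes 4 were higher and 4 lower (26.7% each). Among them were Sox10 (2.45), a transcription factor of the lineage, and Mag (-1.30), a myelin glycoprotein. Of the 15 genes 0 read 0. Their summed intensity was 70631 to 120413 in IP and 51262 to 69889 in WB, higher in every IP array. Mbp, a myelin protein, made up much of that sum, with 25667 to 80467 in IP and 15258 to 24789 in WB on its brightest probe set. Without it the sums overlapped, at 39946 to 51344 in IP and 35565 to 46025 in WB. Of the 8 Mbp probe sets 4 were called higher and 4 lower, with a mean difference of -0.28. The brightest differed by 0.0085 after quantile normalization. Of 16 endothelial and mural genes 2 were higher (12.5%) and 10 lower (62.5%), with Vtn (-3.03), the gene of vitronectin, lowest. Pdgfrb, a receptor of mural cells, was highest (1.64), at 1138 to 2628 in IP and 402 to 824 in WB, without overlap. Of its 2 probe sets 1 was called higher and 0 lower. The summed intensity of the 16 was 14066 to 26307 in IP and 12689 to 14096 in WB. Without Slc2a1, the glucose transporter of brain vessels (1.64), that sum was lower in every IP array, at 5751 to 8458 in IP and 9138 to 10718.5 in WB. Of the 3 Slc2a1 probe sets 2 were called higher and 1 lower. Of 4 red blood cell genes 3 were lower and 0 higher by the limma test, unadjusted p included, and their sum was 298 to 1282 in IP and 5089 to 16262 in WB, without overlap. The counts moved with the scaling. On the hybridization controls 1 ependymal gene was higher and 7 were lower, and 2 oligodendrocyte genes were higher and 10 lower, while after quantile normalization the oligodendrocyte counts were 3 higher and 6 lower. On the hybridization controls 28084 of all 45037 probe sets were lower. The part of these cell types in the members' differences was not tested.

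Among the other 12 small leucine-rich proteoglycans, the family of Dcn and Lum, 4 were higher and 3 lower. The background for this and the lists below was 21.7% of all genes higher and 21.7% lower by the brightest probe set. Osteomodulin (Omd, 1.37), Ecm2 (1.34) and keratocan (Kera, 1.31) were among the higher ones. The lower ones were asporin (Aspn, -1.79), Prelp (-0.83) and nyctalopin (Nyx, -0.62). Omd, Kera, Aspn and Nyx had medians no higher than the brightest Trp control in both groups, as did Steap1 and Lcn5, and the size of such differences is poorly measured. Some other genes named in this account had a median in that range in 1 group only, which limits their folds too. Examples are IP medians of 13.5 for Clic1, 21.0 for Crabp1 and 43.2 for Aldh1l1, and a WB median of 50.4 for Col6a2. Among the other 10 lipocalins, the family of Apod and Ptgds, 1 was higher (Lcn8, 0.71) and 2 were lower (Lcn5, -0.87, and the plasma retinol carrier Rbp4, -0.70). Of the other 13 genes of prostaglandin synthesis and signalling 0 were called in either direction by limma with the deposited scaling, with 1 lower and 0 higher at an unadjusted p under 0.05. Of the same 13 genes 3 were higher after quantile normalization and 3 after median centring, and 6 were lower when scaled on the hybridization controls. Thyroid hormone and retinol genes, the pathway of Ttr, had 1 higher and 7 lower of 11 besides Ttr. Thra, a thyroid hormone receptor, was the higher one (0.84) on its brightest probe set. Of its 3 probe sets 1 was called higher and 1 lower, with a mean difference of -0.37. The brightest read -0.097, not called, when scaled on the hybridization controls. Crabp1, a retinoic acid carrier (-1.87), Slco1c1, a thyroxine transporter of brain vessels (-1.55), and Dio2, the enzyme that activates thyroxine (-1.25), were the lowest. The lower count was 3 of 11 after quantile normalization, 4 after median centring and 9 when scaled on the hybridization controls. With that last scaling 28084 of all 45037 probe sets were lower.

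In klotho and endocrine FGF signalling 1 of 10 besides Kl was higher, the klotho-shedding protease Adam10 (1.25). The 2 lower ones were the receptor Fgfr2 (-1.13) and the protease Adam17 (-0.82). Of the 4 Adam10 probe sets 1 was called higher and 2 lower, with a mean difference of -0.72. Its brightest probe set was not called when scaled on the hybridization controls (0.31). The background for this and the lists below was 21.7% of all genes higher and 21.7% lower by the brightest probe set. Of 11 folate genes besides Folr1, Aldh1l1, a folate enzyme of astrocytes (-2.46), and Shmt1, which loads folate with carbon units (-0.59), were lower and 0 were higher by limma, with 1 higher at an unadjusted p under 0.05. Of 10 genes of lysophosphatidic acid, the product of Enpp2 (not analysed here), 3 were lower and 0 higher by limma, with 2 higher at an unadjusted p under 0.05. The lower ones were the receptor Lpar1 (-1.59) and the lipid phosphatases Plpp2 (-1.96) and Plpp1 (-1.54). Of the 4 other chloride intracellular channel genes Clic4 was higher (0.79, with its other 2 probe sets lower) and Clic1 lower (-2.28). The folate and lysophosphatidic acid counts moved too. After quantile normalization they were 3 higher and 2 lower for folate and 2 and 2 for lysophosphatidic acid, and when scaled on the hybridization controls 0 higher and 7 lower for each. With that last scaling 28084 of all 45037 probe sets were lower.

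Within the WB group the members were compared with Ttr 1454608_x_at over the 9 arrays, each by its brightest probe set. Across 7 correlations, Ptgds followed Ttr with Pearson r = 0.905 (exact permutation p = 0.000857, adjusted p = 0.0060) and Spearman rho = 0.767 (exact permutation p = 0.0214, adjusted p = 0.117). Without the 2 arrays farthest from the Ttr median, WB replicates 4 and 6, r was 0.758. Dcn ran against Ttr, with r = -0.789 (exact permutation p = 0.0102, adjusted p = 0.0356), rho = -0.717 (adjusted p = 0.117) and r = -0.589 without those arrays. For Kl r was -0.651, for Apod 0.586, for Clic6 -0.546, for Folr1 0.195 and for Lum -0.148, and none of these passed by the exact permutation test (adjusted p from 0.124 to 0.702). Without WB replicates 4 and 6, r was -0.930 for Kl, -0.706 for Clic6, 0.408 for Apod, 0.067 for Folr1 and -0.050 for Lum.

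These relations went along with the median of the array. The scaling gave every array the same mean once the outer values at each end were left out. The median therefore reflects how the values of an array are distributed, and is no separate measure of its level. The part of the scaling in the correlations with the median was not tested. The log2 intensity of Ttr 1454608_x_at fell with the median of its WB array (r = -0.862, exact permutation adjusted p = 0.0111 over 16 probe sets, rho = -0.883), and so did Ptgds 1423859_a_at (r = -0.915, adjusted p = 0.00725, rho = -0.917). Without WB replicates 2 and 5, the farthest in array median, r was -0.802 for Ttr and -0.921 for Ptgds. After quantile normalization the r of Ptgds with Ttr was -0.46, against 0.905 as deposited, and 0 of the 7 genes passed the exact permutation test. The 5 genes most like Ttr 1454608_x_at over the 9 WB arrays, of 10460 ranked with a median r of -0.04, were Fbxw11, a ubiquitin ligase subunit (r = 0.975), Atp5h, a subunit of ATP synthase (0.975), Ndufaf2 and Ndufb3, of respiratory complex I (0.973 and 0.971), and Hmgn1, a nucleosome-binding protein (0.970). None is a member of the choroid plexus list, and they are given as a description, since all arrays share the scaling. In IP no such correlation is given, because the 9 arrays fall into groups of 4 and 5.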

How the data were processed

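Affymetrix Mouse Genome 430 2.0 arrays were hybridised with 9 IP and 9 WB samples, amplified from 5 ng of RNA per the labels' protocols. The deposited values are linear intensity values from MAS5 per the submitters' processing notes, with no version given; on every array the mean without the outer 2% at each end was 500. Detection calls were not used. Symbols came from the platform annotation, in which 34945 of 45037 non-control probe sets have 1 symbol, 932 several and 9160 none; all 16 member probe sets matched RefSeq by Entrez number. Differences were fitted on log2(intensity + 16) of the deposited values with limma 3.58.1 in R 4.3.3 (lmFit, eBayes with intensity trend, group only), with Benjamini-Hochberg adjustment over the 45037. Ratios and correlations used exact permutation tests over all divisions or pairings of the arrays (NumPy 2.4.6, with ranks from SciPy 1.17.1). The fit was tested on simulated data.

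Members and gene lists were chosen with earlier results of these data known. From each list the text names at most 3 genes that were highest and 3 that were lowest by the size of a called difference of the brightest probe set; exceptions are said to be such. Alternatives were pseudocounts of 1 and 64, 3 other scalings, a filter at a mean log2 of 7, no intensity trend, array weights, a replicate block and each array left out in turn. Same-numbered IP and WB samples did not deviate together. No batch is given in the labels. Sequences of these genes are not used here.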

Additional observations from a re-analysis of the deposited data

Results flagged for a closer look

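Among 32 groups of 9 arrays, 16 probe sets in IP and in WB, 3 held an array that stood far from the other 8, all of them low IP arrays; by chance about 1 in 20 groups is picked out in this way. Ttr 1451580_a_at read 72.7 in IP replicate 2, against 470 to 1546 in the other IP arrays. Apod 1416371_at read 1040.1 in IP replicate 9, against 1910 to 3083 in the others. Dcn 1441506_at read 65.7 in IP replicate 8, against 169.5 to 384 in the others. The 3 low values lie on 3 different arrays, and those of Ttr and Apod are on probe sets whose groups did not overlap.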

How the results depend on the processing

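The count of higher member probe sets was 2 as reported, 1 (Folr1) after quantile normalization, 3 after median centring, 0 when scaled on the hybridization controls and 0 among plain _at names; that of lower ones was 8, 8, 6, 12 and 5 in the same order, plain _at names being fewer probe sets. Leaving out each array in turn gave 2 to 2 higher and 7 to 8 lower. With the replicate number as a block 2 were higher and 8 lower; correlations of same-numbered deviations were -0.053 to 0.079, and 2 of 9 arrays fitted their own number best. Scaling moved the median of all differences, -0.23 as deposited, to 0.11 (quantile), 0.20 (median centring) and -1.03 (hybridization controls), and the higher share of all calls from 31.6% to 52.3%, 60.6% and 4.95%. Of all 45037 probe sets, 6403 were higher and 13854 lower as deposited. These counts were 10869 and 9908 after quantile normalization, 12802 and 8322 after median centring, and 1461 and 28084 on the hybridization controls. Signs turned, for causes not tested, on Ttr 1454608_x_at (quantile -0.25, hybridization controls -0.061), Ttr 1455913_x_at (-0.26, -0.050), Kl 1451892_at (quantile 0.11, median centring 0.20, without IP replicates 2, 5, 6 and 8 together 0.074), Folr1 (hybridization controls -0.23), Clic6 1454866_s_at (hybridization controls -0.80; 1 array left out -0.034 to 0.19), Apod 1444564_at (hybridization controls -0.60; 1 array left out -0.022 to 0.60) and Dcn 1441506_at (quantile 0.12, median centring 0.14, without those 4 arrays 0.053). In WB, r with Ttr turned for Ptgds (-0.46) and Folr1 (-0.049) after quantile normalization and for Lum (0.14) after median centring; 2 genes passed as reported, 0 after quantile normalization, 1 with Ttr 1455913_x_at and 4 with Ttr 1451580_a_at as the gene compared. Leaving out the 4 IP arrays together, the probe set ratios under another scaling, marker sums without 1 gene and the other Ttr probe sets were chosen after seeing the data. Across gene lists and other single results, 68 counts moved by over 1.5 times, mostly with the scaling, and 9 calls were gained and 11 lost. Folr1, Lum, Clic6 1434165_at and the IP values of Dcn 1449368_at and Kl 1423400_at lie near the dim controls, which limits their folds.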
